A study of Mus musculus with 41 samples.

Results

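The 35 genes described here are transcripts named for disease-associated microglia and for the microglia of proliferative regions of the developing brain, and each was found by its symbol among the 24015 genes of the table. They were followed over 41 bulk RNA-seq libraries of microglia from the mouse cerebellum. The genes were separated into those also high in wild-type (WT) mice at 1 week of age and a class named disease-only. Genes of the second class were called higher in disease and not called higher in WT mice at 1 week, which does not make them low there. WT mice were of strain balb/c and were taken untreated at 1, 3, 6 and 9 weeks, with 4 libraries at each age. Mice with Niemann-Pick type C (NPC) disease were of strain BALB/cNctr-Npc1m1N/J, and untreated NPC mice gave 4 libraries at each of 1, 3 and 6 weeks and 3 at 9 weeks. A further 5 NPC mice at 9 weeks were treated with PLX5622 and 5 more were their labelled controls, whose vehicle or diet the labels do not give. All groups share the same sort: cells positive for both CD11b and Tmem119 were collected from perfused cerebella, about 20000 per sample, and their polyadenylated RNA was amplified with SMART-seq v4 chemistry, which keeps no strand. The series' design text counts mice as replicates. Sex, dose and the length of treatment are not given in the labels.

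Niemann-Pick type C disease follows loss of NPC1, a membrane protein that moves cholesterol out of late endosomes and lysosomes, and the cerebellum, where Purkinje cells die, is its best known site of damage. Disease-associated microglia are a state seen around dying neurons and amyloid deposits, in which genes for lysosomal proteins, lipid handling and phagocytosis are raised while genes of resting microglia are lowered. Proliferative-region-associated microglia appear for a short time after birth in developing white matter, cerebellum included, where they engulf newly made glial cells, and they share many transcripts with the disease-associated state. PLX5622 inhibits the receptor CSF1R, on which microglia depend for survival.

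Values are normalized counts, that is gene counts divided by 1 size factor per library. Changes are on the log2(normalized count + 1) scale with their standard error (SE) after ±, and a gene is called higher or lower at an adjusted p under 0.05 from limma over all genes tested. Library size was 23159093 to 40509603 recovered reads, with a median of 30481422. Npc1, whose strain allele defines the disease mice, lay between 2606 and 7386 normalized counts in WT libraries and between 291 and 785 in the untreated NPC libraries. The summed markers of resting microglia were 1639380 to 5257560 normalized counts per library. Those of astrocytes were at most 15816, those of neurons at most 1063 and those of erythrocytes at most 590.2. In each group 6 to 8 of the 9 erythrocyte genes were at 0 in all libraries, so their low sum says little about erythrocytes. Some libraries stood apart. NPC 3w replicate C had the highest Cd9 and Cd63 values of any library but low Lyz2, Plxnc1 and Rai14. NPC 6w replicates B and C had oligodendrocyte markers of 19864 and 17159, against 9198 and 6836 in replicates A and D, and PLX5622 replicate 3 had monocyte and neutrophil markers of 116999. Results that rest on these libraries are given with and without them. In bulk RNA, fewer cells in a given state and less RNA per cell cannot be told apart.

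RefSeq promoters (build GRCm38.p6, 250 bases before to 50 bases after the start) were found for 27 of the 35 genes. They were searched on both strands for 4 motifs tied to myeloid and lysosomal genes. These were the E-box CACGTG, the M-box TCATGTG of MITF and TFE factors, a loose AP-1 pattern TGANTCA and the PU.1 core GAGGAAG. N stands for any base, so the AP-1 letters counted here are wider than a strict AP-1 site. In the promoters shown no 2 matches shared a base. A gene counted when any of its promoters matched, and Sulf2, Spp1, Clec7a and Rai14 had more than 1. Among the 27 genes 5 held the AP-1 letters (18.5%, against 8.97% of the 27025 genes in the table), 9 held the PU.1 core (33.3% against 15.4%), 2 held the M-box (7.41% against 4.31%) and 0 held the E-box (8.09% of all). The 5 promoters with AP-1 letters are shown because they fall in both age classes described below: Cst7, Gpnmb and Igf1 were also high in WT mice at 1 week, and Itgax and Plaur were not. Capitals mark the AP-1 letters and, in Igf1 and Plaur, the PU.1 core as well. The base at N is T in Cst7, A in Igf1, C in Gpnmb and Plaur and G in Itgax.
Cst7 (chr2:150570165-150570464, + strand): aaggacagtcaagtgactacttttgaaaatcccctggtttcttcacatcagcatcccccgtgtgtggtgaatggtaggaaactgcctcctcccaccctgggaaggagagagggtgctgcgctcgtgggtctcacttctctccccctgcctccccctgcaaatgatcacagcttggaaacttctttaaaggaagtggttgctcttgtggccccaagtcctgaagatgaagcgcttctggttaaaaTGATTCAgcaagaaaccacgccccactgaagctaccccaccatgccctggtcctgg
Gpnmb (chr6:49036268-49036567, + strand): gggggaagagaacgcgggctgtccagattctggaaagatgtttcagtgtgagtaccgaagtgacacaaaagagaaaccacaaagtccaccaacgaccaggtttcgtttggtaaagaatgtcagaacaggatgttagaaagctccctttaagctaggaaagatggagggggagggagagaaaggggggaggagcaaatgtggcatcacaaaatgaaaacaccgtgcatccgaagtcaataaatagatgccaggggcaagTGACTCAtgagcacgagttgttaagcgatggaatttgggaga
Igf1 (chr10:87860861-87861160, + strand): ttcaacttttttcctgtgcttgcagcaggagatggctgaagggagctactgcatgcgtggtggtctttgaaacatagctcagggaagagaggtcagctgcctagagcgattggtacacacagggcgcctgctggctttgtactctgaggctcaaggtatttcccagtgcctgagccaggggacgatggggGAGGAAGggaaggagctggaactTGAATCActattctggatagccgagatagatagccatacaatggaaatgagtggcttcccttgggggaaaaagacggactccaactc
Itgax (chr7:128129300-128129599, + strand): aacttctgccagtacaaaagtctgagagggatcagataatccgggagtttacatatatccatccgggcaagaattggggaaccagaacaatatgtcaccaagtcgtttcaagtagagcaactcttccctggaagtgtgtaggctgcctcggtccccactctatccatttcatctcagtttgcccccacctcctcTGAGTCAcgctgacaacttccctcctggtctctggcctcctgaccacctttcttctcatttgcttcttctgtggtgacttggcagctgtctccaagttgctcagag
Plaur (chr7:24462233-24462532, + strand): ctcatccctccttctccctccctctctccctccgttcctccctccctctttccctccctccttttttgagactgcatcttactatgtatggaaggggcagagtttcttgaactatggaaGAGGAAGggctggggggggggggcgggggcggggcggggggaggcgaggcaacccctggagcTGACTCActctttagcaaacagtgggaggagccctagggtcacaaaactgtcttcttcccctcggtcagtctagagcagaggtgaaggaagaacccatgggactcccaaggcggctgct
A match of this kind describes the letters in the window. It shows neither binding nor use of the site, and no binding data were examined here.

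The 35 genes together took a larger share of reads in NPC than in WT libraries from 3 weeks on. In WT mice they held 0.541 to 0.744% of reads at 1 week, 0.285 to 0.351% at 3 weeks, 0.322 to 0.414% at 6 weeks and 0.292 to 0.354% at 9 weeks. In NPC mice the share was 0.638 to 0.873% at 1 week, 0.713 to 1.10% at 3 weeks, 0.815 to 1.18% at 6 weeks and 1.02 to 1.11% at 9 weeks. WT and NPC libraries overlapped at 1 week and did not at the other ages. Every WT library of 3 weeks or older lay below every WT 1w library, while NPC 3w libraries overlapped with NPC 1w libraries. This share is weighted to abundant genes such as Lyz2, Cd9 and Serpine2, and not every gene follows it. NPC libraries lay fully above WT libraries for 18 of the 35 genes at 3 weeks (12.3% of all genes), 27 at 6 weeks (10.4%) and 32 at 9 weeks (20.8%). The heat map of all libraries shows the genes singly.

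**Figure D1:**
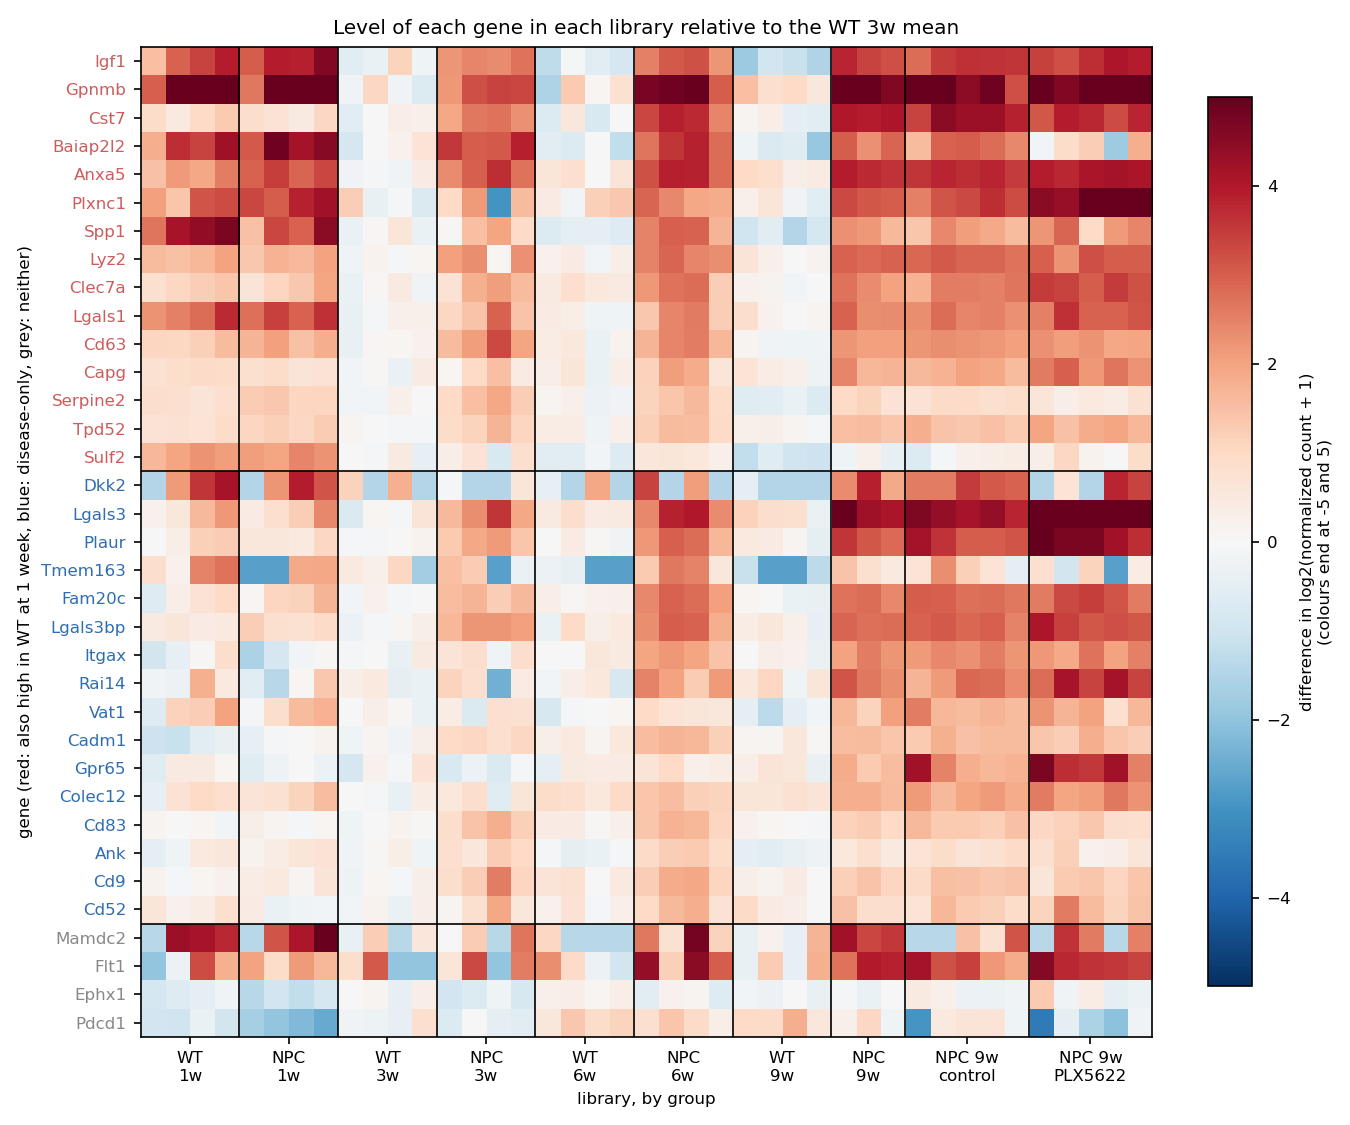
Each row is 1 of the 35 genes and each column 1 of the 41 libraries, ordered by group; colour gives the difference in log2(normalized count + 1) from the WT 3w mean, cut at -5 and 5. Most cells of genes named in red are red in the WT 1w columns and in the NPC columns from 3 to 9 weeks (Sulf2 is pale in the older NPC columns), while genes named in blue are red mainly in the NPC columns from 3 or 6 weeks on. Exceptions include Vat1, Lgals3, Rai14 and low-count genes such as Dkk2 and Tmem163, which are also red in some WT 1w columns. Plaur, Fam20c and Colec12 are among those with a paler red there.

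Of the 35 genes, 15 were higher in WT mice at 1 week than at 3 weeks and form the class also high in WT at 1 week (18.4% of the 14046 genes tested were higher and 15.7% lower). They are Cst7, Gpnmb, Cd63, Lyz2, Spp1, Igf1, Lgals1, Serpine2, Sulf2, Clec7a, Plxnc1, Baiap2l2, Capg, Anxa5 and Tpd52. Another 16 did not meet that rule but were higher in NPC than in WT mice at 6 or 9 weeks and form the disease-only class. These are Cd9, Lgals3, Lgals3bp, Fam20c, Dkk2, Itgax, Cd52, Cadm1, Plaur, Cd83, Gpr65, Colec12, Ank, Tmem163, Rai14 and Vat1. Mamdc2, Flt1, Pdcd1 and Ephx1 met neither rule. Disease-only means not called at 1 week: 14 of the 16 genes had a positive estimate for WT 1w against WT 3w. Their median was 0.47, against 0.01 for all genes. Tmem163 averaged 24.0 normalized counts in WT 1w and 11.9 in NPC 9w libraries, and Dkk2 averaged 22.7 and 20.7. The WT 1w excess chose the first class, so its size there is a description: it ran from 0.77 for Tpd52 to 5.52 for Gpnmb on the log2 scale.

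The boundary between the classes is a threshold and not a gap. Just inside it were Capg (0.88 ± 0.29, adjusted p = 0.0168) and Cst7 (0.92 ± 0.29, adjusted p = 0.0157), and just outside it were Plaur (0.69 ± 0.28, adjusted p = 0.061) and Lgals3 (1.15 ± 0.48, adjusted p = 0.0651). With 4 choices of the later WT age (3, 6 or 9 weeks, or their mean), 13 genes were in the class under all 4, namely all of the 15 but Clec7a and Capg. Under none of the 4 choices did 14 genes enter it, among them Itgax, Cd9, Cd52, Lgals3, Lgals3bp, Fam20c, Cadm1, Cd83, Gpr65 and Colec12. Dkk2, Mamdc2, Tmem163 and Vat1 entered under 2 or 3 of the choices and Ank and Plaur under 1. WT 1w replicate A was low for many of these genes, and without it 22 genes were in the class, with Colec12, Dkk2, Fam20c, Lgals3, Mamdc2, Plaur and Vat1 added. Microglia of 1-week WT mice differed in more than these genes: all 28 cell cycle genes followed here were higher than at 3 weeks, and 7 of 10 border-associated macrophage markers were higher too, with summed values of 4782 to 9852 at 1 week and 484 to 857 at 3 weeks, and with none of the 10 at 0 in all WT 1w libraries. The part of other cells or of dividing cells in the WT 1w levels was not tested.

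**Figure D2:**
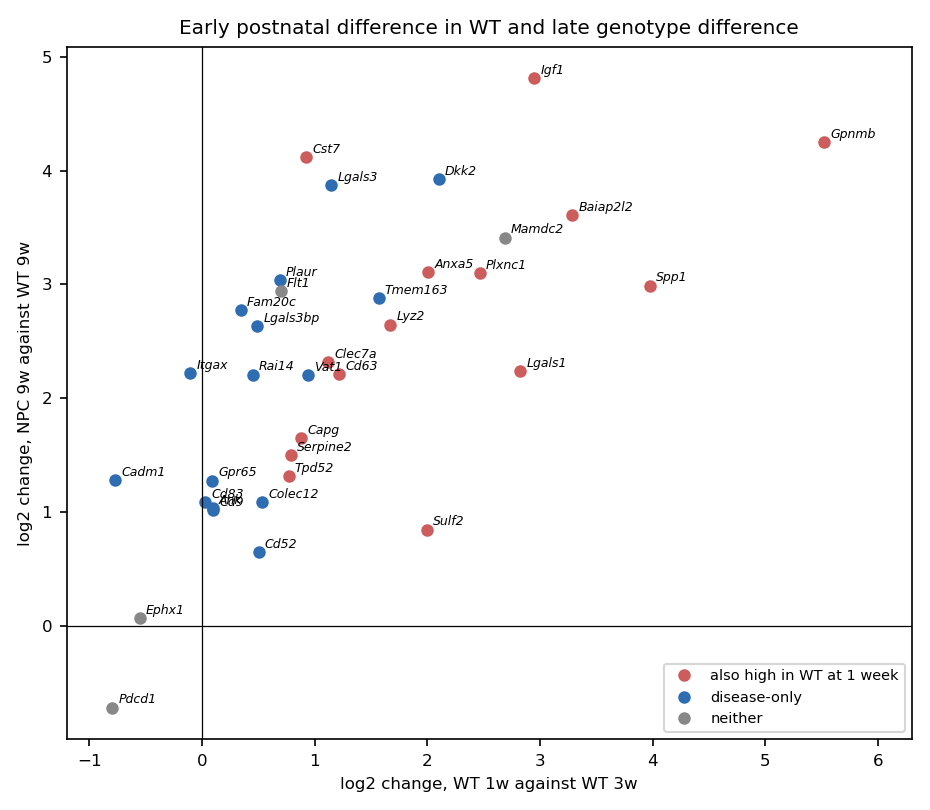
Each point is a gene, with the log2 change of WT 1w against WT 3w on the x axis and of NPC 9w against WT 9w on the y axis; the axes share no library. Points of the class also high in WT at 1 week (red) spread to the right up to Gpnmb at 5.52, while disease-only genes (blue) lie between -0.77 and 2.10 on the x axis and reach 3.93 (Dkk2) on the y axis, below Igf1 at 4.81.

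Lysosomal and tetraspanin genes had the highest median genotype difference of the 4 roles at 3 weeks (2.24 on the log2 scale, with all 5 genes higher in NPC mice). Cst7 encodes cystatin F, an inhibitor of lysosomal cysteine cathepsins. Its WT 3w libraries held 119.9, 177, 225 and 210.1 normalized counts, its NPC 3w libraries 688, 1106, 1161 and 862, its WT 9w libraries 196, 224, 127 and 125 and its NPC 9w libraries 2883, 2681 and 2974. Every NPC library lay above every WT library at both ages, although at 1 week the groups overlapped, with 339.8, 247, 353 and 439 in WT and 331, 292, 244 and 362 in NPC mice. Cst7 was 17.4-fold (95% interval 11.1 to 27.3) higher in NPC mice at 9 weeks (log2 4.12 ± 0.32, limma adjusted p = 1.72e-10).

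Gpnmb, a transmembrane glycoprotein of lysosomes and melanosomes, was nearly silent in WT mice after the first week. WT libraries held 121, 609, 1103 and 2963 at 1 week, 12.4, 30.7, 12.5 and 8.63 at 3 weeks and 41.9, 26.2, 29.8 and 21.7 at 9 weeks. NPC libraries held 93.5, 508, 859 and 2184 at 1 week, 67.1, 141, 159.9 and 154 at 3 weeks, 413, 439, 872 and 124 at 6 weeks and 574, 849 and 382 at 9 weeks. In both genotypes replicate A was the lowest and replicate D the highest at 1 week, a spread of more than an order of magnitude that the genotypes shared. From 3 weeks on the NPC and WT libraries did not overlap, and the difference was 3.02 ± 0.79 at 3 weeks, 4.45 ± 0.79 at 6 weeks and 4.25 ± 0.86 at 9 weeks (adjusted p = 0.00692, 0.000167 and 0.000575).

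Cd63, a tetraspanin of late endosomes and lysosomes, and Lyz2, the lysozyme of myeloid cells, are among the most abundant members. Cd63 stood at 9066, 7432, 7109 and 7238 in WT 9w and 38489, 34086 and 34326 in NPC 9w libraries. Lyz2 stood at 12738, 9666, 8036 and 9345 in WT 9w and 63453, 57731 and 63166 in NPC 9w libraries. Neither gene overlapped between genotypes at 9 weeks, with differences of 2.21 ± 0.27 for Cd63 and 2.65 ± 0.31 for Lyz2 (adjusted p = 7.01e-07 and 2.89e-07). NPC 3w replicate C was an exception for Lyz2 at 8761, against 33724, 40965 and 39387 in the other 3, so the 3-week groups overlapped. The difference of 1.68 ± 0.29 at 3 weeks (adjusted p = 0.000114) was 2.21 without that library and missed the threshold when only the 2 groups compared were fitted (adjusted p = 0.0585). Reads of Lyz2 can be shared with its close relative Lyz1, which averaged 4.73 normalized counts in WT 9w and 15.4 in NPC 9w libraries.

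Cd9, a tetraspanin of the plasma membrane, was the one disease-only gene of this role. WT 1w libraries held 24080.3, 19995, 22842 and 24475 and WT 3w libraries 17760.5, 22572, 19621 and 26041, so the 2 ages overlapped. NPC 3w libraries held 39486, 50018, 123882 and 45131, all above WT, and NPC 9w libraries held 49008, 56492 and 44881. The genotype difference was 1.44 ± 0.24 at 3 weeks and 1.02 ± 0.26 at 9 weeks, and 1.07 at 3 weeks without NPC 3w replicate C.

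Among secreted factors, Spp1 and Igf1 were high at 1 week in both genotypes and were above WT in NPC mice at 6 and 9 weeks. Spp1 encodes osteopontin, a phosphoprotein that binds integrins and CD44. WT libraries held 6312, 17192, 21614 and 26019 at 1 week, 788, 1045, 1520.5 and 790.4 at 3 weeks and 504, 695, 358 and 542 at 9 weeks. NPC libraries held 2778, 10185, 7639 and 22797 at 1 week, 1030.4, 2796, 3880.5 and 1918 at 3 weeks, 5611, 8018, 7683 and 3258 at 6 weeks and 4859.8, 4519.7 and 3051 at 9 weeks. WT and NPC values overlapped at 1 and 3 weeks and were apart at 6 and 9 weeks. The genotype difference did not pass at 3 weeks (1.11 ± 0.46, adjusted p = 0.0703), and was 3.11 ± 0.46 at 6 weeks and 2.99 ± 0.50 at 9 weeks (adjusted p = 1.3e-05 and 5.33e-05).

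Igf1, an insulin-like growth factor, had the largest genotype difference of any member at 9 weeks. Its WT 1w libraries held 288, 778, 1058 and 1549, its WT 9w libraries 27.6, 51.3, 45.6 and 35.1 and its NPC 9w libraries 1409, 1040.4 and 949.6. The lowest NPC 9w library was far above the highest WT 9w library and inside the range of WT 1w. Igf1 was 28-fold (95% interval 15.2 to 51.7) higher in NPC mice at 9 weeks (log2 4.81 ± 0.43, adjusted p = 2.39e-09), after 2.44 ± 0.40 at 3 weeks and 3.45 ± 0.40 at 6 weeks.

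The galectins fell in different classes, although Lgals3 lay just outside the threshold of the first class and entered it without WT 1w replicate A. Galectin-1, encoded by Lgals1, binds galactosides on glycoproteins, and Lgals1 held 1391, 1695, 2039 and 3875 in WT 1w, 546, 336, 295 and 325 in WT 9w and 2291, 1478 and 1503 in NPC 9w libraries. Galectin-3, encoded by Lgals3, is recruited to damaged lysosomes, and Lgals3 held 153, 194, 412 and 605 in WT 1w, 294, 246, 231 and 105 in WT 9w and 4885, 2478 and 2267 in NPC 9w libraries. NPC 9w libraries thus lay within the WT 1w range for Lgals1 and above all of it for Lgals3. Lgals3bp, a secreted glycoprotein that binds galectin-3, held 7039, 7904, 6916 and 7159 in WT 1w, 6714, 7665, 6177 and 3843 in WT 9w and 39218, 35236 and 35629 in NPC 9w libraries. At 9 weeks the genotype difference was 2.24 ± 0.39 for Lgals1, 3.87 ± 0.52 for Lgals3 and 2.63 ± 0.26 for Lgals3bp (adjusted p = 8.99e-05, 2.39e-06 and 9.24e-09).

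Fam20c is a Golgi kinase that phosphorylates secreted proteins, osteopontin among them. Unlike Spp1 it was disease-only, with 1458, 2815, 3683 and 4492 in WT 1w, 2414, 2292, 1819.6 and 1752 in WT 9w, 12099, 17251, 15591 and 9337 in NPC 6w and 14974, 15573 and 11902 in NPC 9w libraries. All NPC libraries of 6 and 9 weeks were above all WT libraries of any age, and the difference at 9 weeks was 2.78 ± 0.29 (adjusted p = 4.05e-08). Serpine2, an inhibitor of serine proteases, held 15736, 15958, 18869 and 15043 in WT 9w and 48181, 51784 and 39714 in NPC 9w libraries and differed by 1.50 ± 0.17. Sulf2, an extracellular sulfatase that edits heparan sulfate, had the smallest genotype difference of the called secreted genes. It held 3973, 4945, 5944 and 5353 in WT 1w, 541, 831, 622 and 615 in WT 9w and 1094, 1488 and 953 in NPC 9w libraries. Its change of 0.85 ± 0.26 at 9 weeks (adjusted p = 0.0188) lost its call without WT 9w replicate A or without NPC 9w replicate B (adjusted p = 0.0573 and 0.126). Sulf2 shares 154 exon bases with Ncoa3 on the opposite strand, and reads there cannot be told apart. Spp1 shares 309 exon bases with Gm42793, a transcript on its own strand.

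Dkk2, a Wnt modulator, and Mamdc2, a secreted protein with MAM domains, were near the detection limit. Dkk2 held 1.02, 0, 0 and 0 in WT 9w and 13.3, 39.3 and 9.33 in NPC 9w libraries, but also 0, 11, 32.2 and 47.5 in WT 1w libraries. Its call at 9 weeks (adjusted p = 0.0367) was lost in 7 of 18 alternatives, and its disease-only class rests on the spread of its WT 1w values and not on low ones. Mamdc2 held 0, 49.7, 44.7 and 34.9 in WT 1w, 1.02, 2.09, 0.992 and 7.53 in WT 9w and 47.8, 25.5 and 29.8 in NPC 9w libraries and passed in no genotype comparison. Its NPC 9w values lay above all WT 9w values, yet the 5 control libraries of the same age and strain held 0, 0, 6.2, 3.5 and 22.3.

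Surface receptors and adhesion genes were mostly disease-only. Itgax encodes the integrin chain CD11c. Its WT libraries held 476, 666, 931 and 1628 at 1 week, 840.5, 917, 689.5 and 1208 at 3 weeks and 877, 1123, 1037 and 713 at 9 weeks, and its NPC libraries held 1382, 1629.8, 790.4 and 1633 at 3 weeks and 3626, 5339 and 4113 at 9 weeks. WT values overlapped across ages, and NPC values left the WT range at 6 and 9 weeks but not at 3 weeks. The difference was 0.54 ± 0.32 at 3 weeks (adjusted p = 0.201), 1.63 ± 0.32 at 6 weeks and 2.22 ± 0.34 at 9 weeks (adjusted p = 0.000495 and 2.01e-05).

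Clec7a, the beta-glucan receptor Dectin-1, held 954, 1145, 1311 and 1456 in WT 1w, 436, 581, 744 and 491 in WT 3w, 638, 619.9, 495 and 545 in WT 9w and 3617, 2863 and 2227 in NPC 9w libraries. All 3 NPC 9w libraries exceeded all WT libraries, at 1 week too, and the 9-week difference was 2.31 ± 0.32 (adjusted p = 3.12e-06). Plaur, the urokinase receptor, held 176, 171, 183 and 206 in WT 3w, 451, 712, 806 and 478 in NPC 3w, 257, 244, 203 and 131 in WT 9w and 2205, 1595 and 1315 in NPC 9w libraries. Its genotypes were apart from 3 weeks on, with a difference of 1.69 ± 0.28 at 3 weeks and 3.04 ± 0.31 at 9 weeks (adjusted p = 9.35e-05 and 1.9e-08).

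Plxnc1, a semaphorin receptor, passed between genotypes at 9 weeks alone. Its NPC 6w libraries (214, 152, 109 and 103) nevertheless lay above all WT 6w libraries (37.9, 25.2, 64.4 and 72.2). WT libraries held 117, 75.1, 258 and 279 at 1 week and 33.7, 42.9, 24.8 and 18.4 at 9 weeks, and NPC libraries held 292, 234, 411 and 531 at 1 week, 56.2, 126, 2.6 and 85.9 at 3 weeks and 281, 247 and 232 at 9 weeks. NPC values were thus lowest at 3 weeks, where they overlapped with WT, and all 3 NPC 9w libraries lay above WT 9w (3.10 ± 0.74, adjusted p = 0.00303). At 3 weeks the difference was 0.42 ± 0.68 (adjusted p = 0.673), and without NPC 3w replicate C, where Plxnc1 read 2.6, it was 1.57 (adjusted p = 0.0203).

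The adhesion molecule Cadm1 and the immunoglobulin family protein Cd83 were abundant and moved less. Cadm1 held 1968, 1868, 2789 and 3133 in WT 1w, 4523, 4526, 5962 and 4194 in WT 9w and 11879, 12264 and 10532 in NPC 9w libraries. It was the one disease-only gene that was lower in WT mice at 1 week than at 3 weeks (-0.77 ± 0.16, adjusted p = 0.000387), and it was 1.28 ± 0.17 higher in NPC mice at 9 weeks. Cd83 held 8887, 8365, 8619 and 7455 in WT 1w, 9402, 8794, 8167 and 7726 in WT 9w and 18257, 19744 and 16319 in NPC 9w libraries and differed by 1.09 ± 0.16 at 9 weeks.

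Gpr65, a proton-sensing receptor, and Colec12, a scavenger receptor of the collectin family, passed at 9 weeks alone. Gpr65 held 226, 284, 264 and 139 in WT 9w and 649, 449.5 and 523 in NPC 9w libraries (1.28 ± 0.32, adjusted p = 0.00507). Colec12 held 3912, 3893, 4370.4 and 4029 in WT 9w and 9055, 9093 and 7744 in NPC 9w libraries (1.09 ± 0.28, adjusted p = 0.00562). Neither overlapped between genotypes at that age. Reads of Gpr65 cannot be separated from an antisense transcript that shares 511 of its exon bases.

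Cd52, Flt1 and Pdcd1 departed from the common pattern. Cd52, a small anchored glycopeptide of leukocytes, held 1421, 986, 937 and 730.2 in WT 9w and 2018, 1367 and 1348 in NPC 9w libraries, which overlapped. It passed at 3 and 6 weeks (0.86 ± 0.29 and 1.01 ± 0.29) and not at 9 weeks (0.65 ± 0.31, adjusted p = 0.155), and the 3-week call was lost without NPC 3w replicate C (adjusted p = 0.187). Flt1, a receptor for vascular endothelial growth factor, held 2.04, 8.38, 1.98 and 12.5 in WT 9w and 24.5, 60.6 and 56 in NPC 9w libraries and passed at no age. Pdcd1, which encodes the inhibitory receptor PD-1, held 676, 666, 1207 and 501 in WT 9w and 408, 699 and 295 in NPC 9w libraries and was the only member with a negative genotype difference at 9 weeks (-0.72 ± 0.33, adjusted p = 0.127).

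Genes of transport, cytoskeleton and membranes included the strongest 3-week difference. Baiap2l2, a membrane-bending protein that binds actin, held 77.8, 293, 236 and 429.7 in WT 1w, 11.4, 21.3, 25 and 35.5 in WT 3w, 258, 183, 186 and 331 in NPC 3w, 18.4, 12.6, 13.9 and 5.02 in WT 9w and 181, 111 and 169 in NPC 9w libraries. Every untreated NPC library from 3 weeks on was above every WT library of 3 weeks or older. The difference was 3.37 ± 0.47 at 3 weeks and 3.61 ± 0.51 at 9 weeks (adjusted p = 6.37e-06 and 4.62e-06).

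Anxa5, which binds phosphatidylserine on dying cells, was already higher in NPC mice at 1 week. It held 1532, 2422, 2147 and 3263 in WT 1w, 4306, 6168, 4268 and 5642 in NPC 1w, 1124, 999, 709 and 750.3 in WT 9w and 8506, 7528 and 6805 in NPC 9w libraries. The genotypes overlapped at no age, and the difference was 1.15 ± 0.26 at 1 week, 2.94 ± 0.26 at 3 weeks and 3.11 ± 0.28 at 9 weeks (adjusted p = 0.0177, 4.99e-09 and 3.05e-09). Capg, which caps actin filaments, held 633, 508, 468 and 329 in WT 9w and 2107, 1229.6 and 1260.2 in NPC 9w libraries (1.65 ± 0.31), and Tpd52, a vesicle trafficking protein, held 3135, 3155, 2880.2 and 2469 and 7319, 7559 and 6746 (1.31 ± 0.16). Both were without overlap at 9 weeks.

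Ank, a membrane exporter of pyrophosphate and citrate, held 967, 901, 1034 and 1125 in WT 9w and 1938, 2397 and 1867 in NPC 9w libraries (1.03 ± 0.20, adjusted p = 0.000433). Rai14, which binds actin, held 117, 166, 68.5 and 124 in WT 9w and 712, 510.1 and 402 in NPC 9w libraries (2.21 ± 0.63, adjusted p = 0.0135), and lost its call without NPC 9w replicate A (adjusted p = 0.0759). Vat1, a membrane protein named for vesicle amine transport, held 30.9, 109, 116 and 198 in WT 1w, 34.8, 18.8, 35.7 and 43.5 in WT 9w and 157, 106 and 202 in NPC 9w libraries. None of the 3 genes overlapped between genotypes at 9 weeks, but the NPC 9w values of Vat1 overlapped with those of WT 1w. Tmem163, a zinc transporter of vesicles, held 4.33, 3.97, 0 and 0 in WT 6w, 15.2, 40.2, 36 and 8.79 in NPC 6w and 11.1, 6.62, 36.4 and 41.9 in WT 1w libraries, at most 60 reads in a library, and its 6-week call (adjusted p = 0.028) was lost without NPC 6w replicates B and C. Tmem163 shares 140 exon bases with Mgat5 and Rai14 shares 89 with Gm10389, each on the opposite strand, so reads there cannot be told apart either. Ephx1, the microsomal epoxide hydrolase, was lower in NPC mice at 3 weeks, with 473, 574, 786 and 521 against 895, 1015, 682 and 1148 (-0.67 ± 0.20, adjusted p = 0.0144), and its groups overlapped. Without WT 3w replicate D that call was lost (adjusted p = 0.0513).

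**Figure D3:**
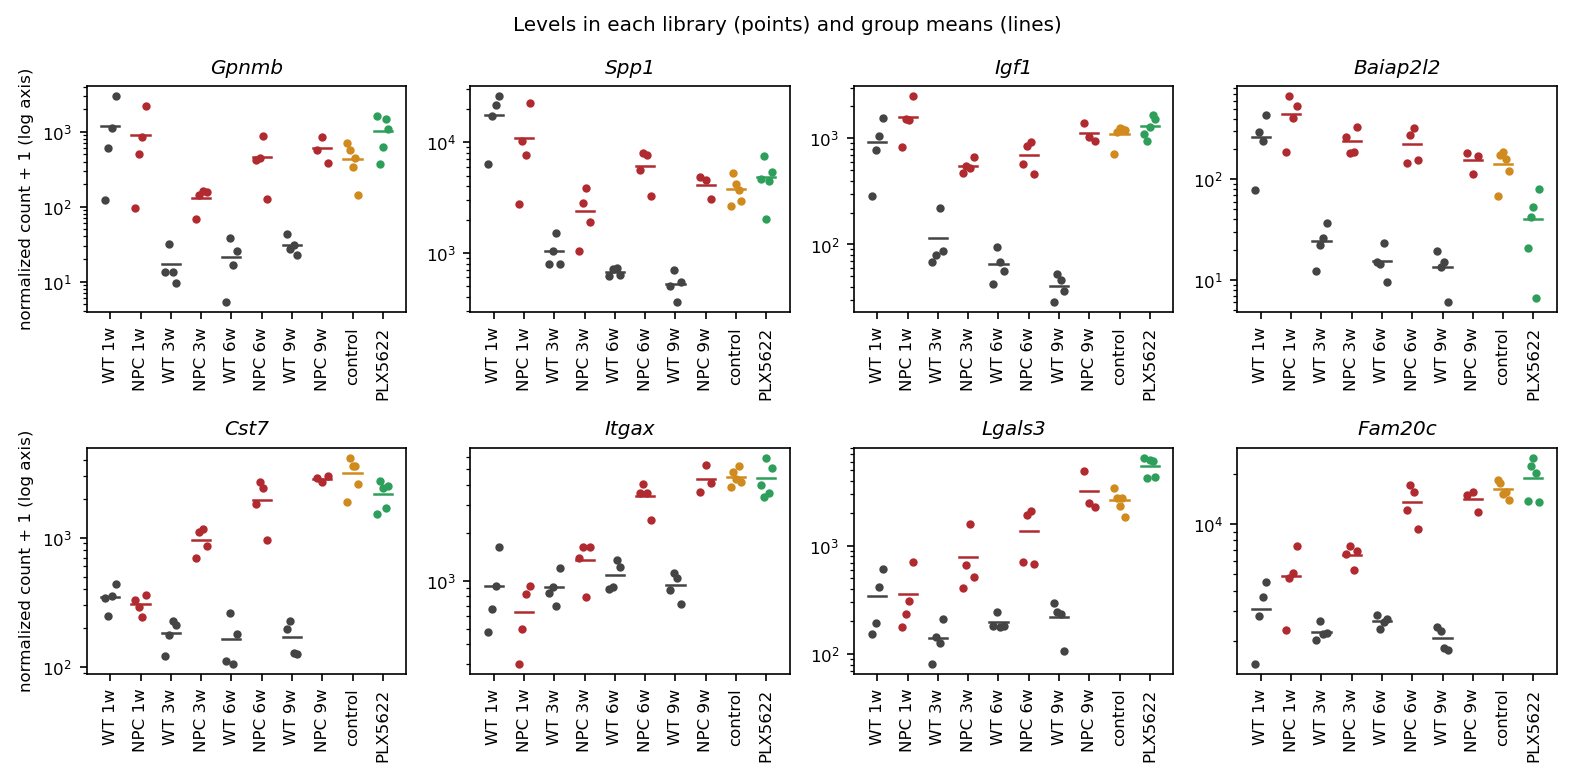
Normalized counts plus 1 on a log axis for 8 genes, with a point per library and a line at each group mean; WT libraries are grey, untreated NPC red, control orange and PLX5622 green. Gpnmb, Spp1, Igf1 and Baiap2l2 form a U in NPC mice or a fall in WT mice after 1 week, whereas the group means of Itgax, Lgals3 and Fam20c climb from age to age in untreated NPC mice; in WT mice Lgals3 and Fam20c have their highest mean at 1 week.

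Counted over the ages, the genotype difference spread from 3 genes at 1 week to 29 at 9 weeks. At 1 week 2 of the 35 genes were higher in NPC mice (0.876% of genes tested) and 1 was lower (0.577%). By 3 weeks 20 were higher (14.3%) and 1 lower (12.6%), with a median log2 change of 1.13 for the 35 genes and -0.04 for all genes. At 6 weeks 26 were higher (8.76%) and 0 lower (6.5%), with medians of 1.65 and -0.02. By 9 weeks 29 were higher (11.2%) and 0 lower (7.77%), with medians of 2.24 and 0.03. NPC and WT libraries were fully apart, with NPC above, for 18 genes at 3 weeks (12.3% of all genes), 27 at 6 weeks (10.4%) and 32 at 9 weeks (20.8%). Without NPC 6w replicates B and C the 6-week count was 20, with Capg, Cd52, Cd9, Lgals1, Rai14, Sulf2 and Tmem163 no longer called and Ephx1 called lower (-0.85, adjusted p = 0.0119).

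The class also high in WT at 1 week was chosen on WT 1w and WT 3w libraries, whose means take no part in the 6- and 9-week differences. Those libraries do enter each gene's estimate of the spread in the shared fit, so the later calls are not fully independent of the choice. Of the 15 genes in this class 14 were higher in NPC mice at 6 weeks, all but Plxnc1, and 15 at 9 weeks, with medians of 1.89 and 2.65. Capg, Lgals1 and Sulf2 of this class lost their 6-week call without NPC 6w replicates B and C. For the disease-only class the counts, 12 of 16 at 6 weeks and 14 of 16 at 9 weeks, follow from the rule that made it, and its medians were 1.25 and 2.20. At 3 weeks 9 of its 16 genes were higher: Cd9, Lgals3, Lgals3bp, Fam20c, Cd52, Cadm1, Plaur, Cd83 and Ank. WT 3w libraries enter both the class rule and the 3-week comparison, so counts by class at that age are a description. The plot of the genotype difference by age shows Plxnc1, Spp1, Sulf2 and Capg as the genes of the first class that did not pass at 3 weeks, and Itgax, Gpr65, Colec12, Rai14, Vat1, Tmem163 and Dkk2 as those of the second. Markers of other cells moved with genotype as well. Of 10 border-associated macrophage markers 4 were higher in NPC mice at each of 3, 6 and 9 weeks and 2 were lower at 6 weeks, and their sums were 401 to 774 in WT 9w and 1377 to 2049 in NPC 9w libraries, with none of the 10 at 0 in all libraries of either group. Of 12 astrocyte markers 2 were higher at each of these ages, at 9 weeks Gfap (4.12) and Sox9 (2.72), with sums of 8486 to 9312 in WT 9w and 9507 to 12816 in NPC 9w libraries and none of the 12 at 0 in all libraries of either group. Oligodendrocyte marker sums were 6763 to 7132 in WT 9w and 8441 to 17607 in NPC 9w libraries, which did not overlap, and of 12 such markers tested Mbp alone was higher at 9 weeks (1.49, adjusted p = 0.0277). Of the 13 on that list 1 was at 0 in all WT 9w and 2 in all NPC 9w libraries. Their part in the 35 genes was not tested.

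**Figure D4:**
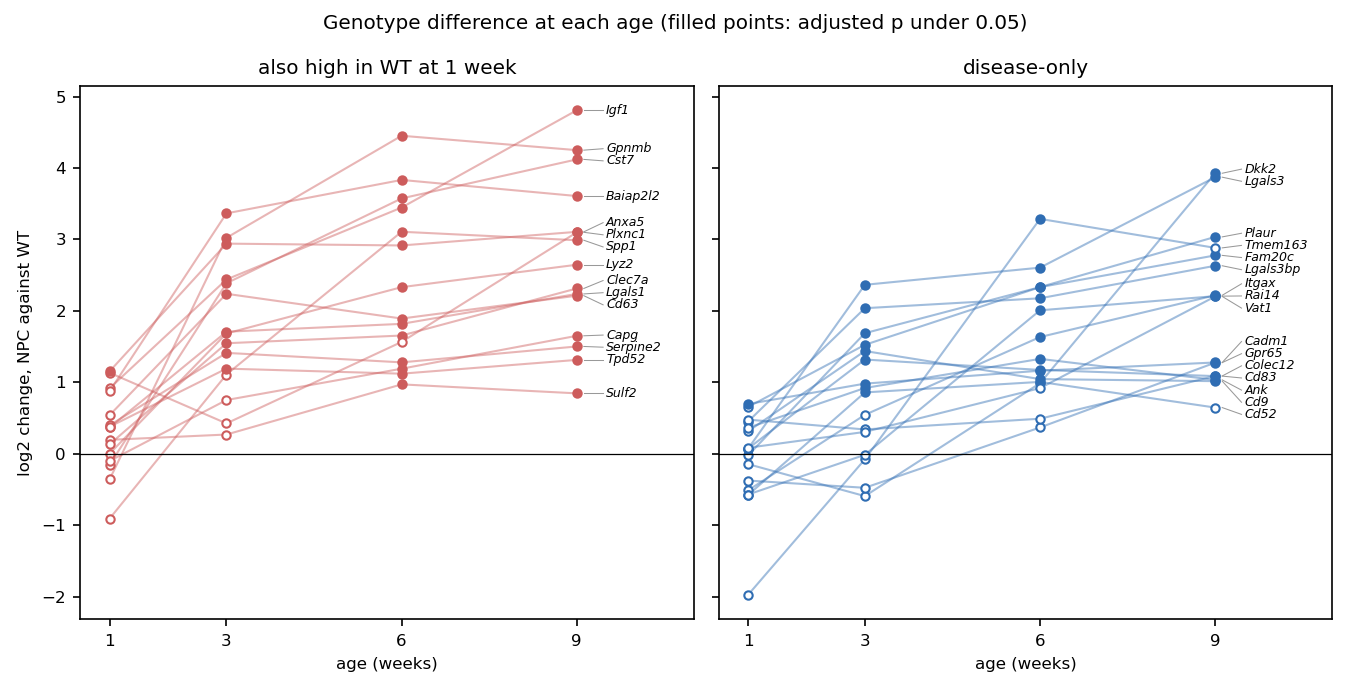
Log2 change of NPC against WT mice at 1, 3, 6 and 9 weeks, a line per gene, with the class also high in WT at 1 week on the left and disease-only genes on the right; filled points passed the limma threshold. In both panels most lines lie near 0 at 1 week and above 1 at 9 weeks, ending between 0.85 (Sulf2) and 4.81 (Igf1) on the left and between 0.65 (Cd52) and 3.93 (Dkk2, a low-count gene) on the right.

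At 1 week Anxa5 and Cadm1 were higher and Pdcd1 lower in NPC mice. Cadm1 held 3064, 3857, 4026 and 4652 in NPC 1w against 1968, 1868, 2789 and 3133 in WT 1w libraries (0.70 ± 0.16, adjusted p = 0.0191), and Pdcd1 held 107, 84.7, 72.5 and 58.9 against 174, 170.0, 272 and 181 (-1.30 ± 0.30, adjusted p = 0.0204). WT and NPC libraries did not overlap for Pdcd1 and overlapped slightly for Cadm1. Libraries with the same replicate letter deviated together at 1 week, and with the letter as a block Pdcd1 lost its call (adjusted p = 0.0673) while Fam20c gained one (0.65, adjusted p = 0.036). No member was called without WT 1w replicate A, which had the lowest Fam20c, Colec12 and Igf1 values of its group, or without NPC 1w replicate D.

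The genotype difference itself grew between 1 and 3 weeks. Tested as an interaction, it was larger at 3 weeks for 8 of the 35 genes (0.861% of genes tested) and smaller for 0 (0.199%). They were Cst7 (2.54 ± 0.42), Cd63 (1.70 ± 0.36), Lyz2 (1.68 ± 0.41), Anxa5 (1.79 ± 0.37), Serpine2 (1.01 ± 0.23), Lgals3bp (1.59 ± 0.33), Plaur (1.71 ± 0.40) and Cd83 (1.25 ± 0.22), with adjusted p from 0.00323 for Cst7 to 0.0344 for Lyz2. For the genes of the class also high in WT at 1 week this test reuses the libraries that set the class, so their count of 5 is a description. Gpnmb had the largest estimate and missed the threshold (3.38 ± 1.12, adjusted p = 0.144). With the replicate letter as a block 13 genes passed, adding Gpnmb, Spp1, Baiap2l2, Clec7a and Lgals3, and with only the groups compared in the fit 4 passed. Leaving out 1 library gave 5 to 14.

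The same age step was read in NPC mice, in libraries the class rule did not use, although the shared fit gives both the same estimate of the spread. Same-letter WT 1w and NPC 1w libraries also deviated together (r from 0.107 to 0.158). The NPC 1w levels are therefore not fully independent of the libraries that set the class. From 1 to 3 weeks in NPC mice 9 of the 35 genes rose (12.2% of genes tested) and 6 fell (12.8%). Among the 15 genes also high in WT at 1 week 6 fell: Plxnc1 (-3.17 ± 0.68), Gpnmb (-2.14 ± 0.79), Spp1 (-1.96 ± 0.46), Sulf2 (-1.92 ± 0.24), Lgals1 (-1.48 ± 0.36) and Igf1 (-1.42 ± 0.40). Only Cst7 rose in that class (1.62 ± 0.29, adjusted p = 0.000129), and Cd63, Lyz2, Serpine2, Anxa5, Capg, Tpd52, Clec7a and Baiap2l2 passed in neither direction. Of the 16 disease-only genes 7 rose and 0 fell: Cd83 (1.22 ± 0.15), Itgax (1.16 ± 0.32), Lgals3bp (1.10 ± 0.24), Cadm1 (1.06 ± 0.16), Cd9 (1.03 ± 0.24), Plaur (1.02 ± 0.28) and Cd52 (0.93 ± 0.29). Pdcd1 rose as well (1.67 ± 0.30). The class medians of this step were -0.22 and 0.73, against -0.07 for all genes. The classes overlapped, from -3.17 to 1.62 and from -2.55 to 1.22, and the difference between them was not tested.

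Sulf2 and Igf1 show what the fall looked like in single libraries. Sulf2 held 5339.8, 4942, 6820.5 and 5948 in NPC 1w and 1579.5, 2043, 736 and 2193 in NPC 3w libraries, and Igf1 held 827, 1536, 1478 and 2495 and 470.3, 546, 526 and 666. Neither gene overlapped between the ages, but all NPC 3w values of Igf1 stayed above all WT 3w values (67.2, 79.3, 220.5 and 85.4) while those of Sulf2 overlapped with WT 3w (1282, 1218, 1694 and 934). With only the groups compared in the fit 9 of the 15 calls remained in number, and Spp1, Plxnc1, Gpnmb, Itgax, Cd9 and Cd52 were the ones lost. Gpnmb lost its call in 10 of 19 alternatives. Cell cycle genes fell together over this step, 28 of 28, and 4 of 10 border-associated macrophage markers fell, with sums of 7830.4 to 9262 at 1 week and 1423 to 1864 at 3 weeks; whether they contribute to the falls was not tested.

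Late disease was then set against the early postnatal level. Between NPC mice at 9 weeks and WT mice at 1 week 19 of the 35 genes were higher in NPC (14.1% of genes tested) and 2 lower (12.2%). Sulf2 and Spp1 were lower in late disease than in WT mice at 1 week (-2.11 ± 0.26 and -1.95 ± 0.50, adjusted p = 2.29e-07 and 0.00366). Gpnmb (-0.30, 95% interval -2.05 to 1.46), Igf1 (0.52, -0.36 to 1.40), Lgals1 (-0.27, -1.06 to 0.52), Baiap2l2 (-0.54, -1.58 to 0.49), Serpine2 (0.16, -0.19 to 0.52) and Plxnc1 (0.67, -0.84 to 2.18) did not pass, and the interval for Gpnmb spans more than 2-fold each way. The other 7 genes of the class were higher in late disease, from Tpd52 (0.69 ± 0.16) to Cst7 (3.07 ± 0.32). Among disease-only genes 11 of 16 were higher, led by Lgals3 (3.36 ± 0.52), Plaur (2.49 ± 0.31), Itgax (2.37 ± 0.34) and Lgals3bp (2.34 ± 0.26). Those not passing were Dkk2, Cd52, Ank, Tmem163 and Vat1, and of the 4 genes in neither class Pdcd1 was higher (1.16 ± 0.33). WT 1w libraries entered both the class rule and this comparison, so the class counts are levels set side by side.

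From 3 to 9 weeks the genotype difference had mostly positive estimates of growth, none of which passed. The estimate was positive for 30 of the 35 genes, with a median of 0.90 against 0.08 for all genes. No member passed limma's threshold in either direction (0.263% and 0.192% of genes tested), although 15 had an unadjusted p under 0.05. Igf1 (2.37 ± 0.59, adjusted p = 0.0601), Cst7 (1.73 ± 0.43, 0.0625) and Gpr65 (1.75 ± 0.44, 0.0625) came nearest. edgeR on recovered reads called 2 members, Igf1 and Gpr65, DESeq2 called 4, and limma with array weights called 8. Cd9, Cd83, Cd52, Pdcd1 and Cd63 had estimates of -0.42, -0.23, -0.21, -0.30 and -0.03.

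PLX5622 was compared with its own control group, to ask what the cells sorted from treated NPC mice express. Of the 35 genes 4 were higher with PLX5622 (0.637% of the 12877 genes tested) and 0 lower (0.311%). Plxnc1 held 165, 253, 285, 372 and 275 in control and 666, 599, 1031, 1356 and 1189 in PLX5622 libraries, and Lgals3 held 3406, 2791, 2334, 2761 and 1841 and 6500.1, 4215, 6250.1, 6058 and 4285. Clec7a held 1864, 3236, 3219, 3152 and 3573 in control and 6161, 5681, 4496, 6161 and 5013 in PLX5622 libraries, and Capg 1194, 1302, 1594, 1491 and 1161 and 2400.0, 3148, 1750.3, 2472 and 1859. All 5 treated libraries were above all 5 control libraries for each of these genes, as they were for 2.1% of all genes tested and for Lgals3bp, which did not pass (0.51 ± 0.18, adjusted p = 0.198). The changes were 1.81 ± 0.26 for Plxnc1, 1.06 ± 0.18 for Lgals3, 0.89 ± 0.17 for Clec7a and 0.76 ± 0.16 for Capg (limma adjusted p = 0.0103, 0.0181, 0.0269 and 0.0459).

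Baiap2l2 had the lowest estimate, with 67.4, 175, 183, 158 and 119 in control and 19.6, 41.6, 51.8, 5.6 and 78.2 in PLX5622 libraries, which overlapped (-2.15 ± 0.60, adjusted p = 0.113). Control replicate 1 was the one control library within the treated range. Igf1 held 705, 1151, 1264, 1228 and 1199.5 in control and 1089, 954, 1293, 1648 and 1531 in PLX5622 libraries (0.23 ± 0.19, 95% interval -0.18 to 0.65), and Itgax held 3896, 4801, 4373, 5272 and 4147 and 3996, 3366, 5911, 3576 and 5084 (-0.06 ± 0.16, -0.40 to 0.27). These overlapped, and neither passed. Gpr65 and Plaur had higher estimates (1.36 ± 0.52 and 1.25 ± 0.35, adjusted p = 0.254 and 0.124) with control replicate 1 at 3327 and 3309.7, the highest of its group. Without that library Gpr65 passed (1.82, adjusted p = 0.0363) and Capg did not.

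The number called under PLX5622 depended on single libraries. It was 1 without control replicate 3, 4 or 5 or PLX5622 replicate 4, 2 without control replicate 2 or PLX5622 replicate 2, and 8 without PLX5622 replicate 5. Without PLX5622 replicate 3, the library with the high monocyte and neutrophil markers, it was 4, the same genes. Border-associated macrophage marker sums were 1483 to 1926 in control and 2687 to 5092 in PLX5622 libraries, and 2 of 7 such markers tested were higher (Ms4a7 and Siglec1, the latter named after its value was seen), whereas Mrc1, which defines those cells, lay at 474 to 789 in control and 509.7 to 813 in treated libraries and Lyve1, another defining marker named after its value was seen, was at 0 in all 5 treated and 3 of 5 control libraries. Monocyte and neutrophil sums were 358 to 6553 and 766 to 116999, with none of those markers at 0 in all libraries of either group. The part of such cells in the 4 genes was not tested.

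**Figure D5:**
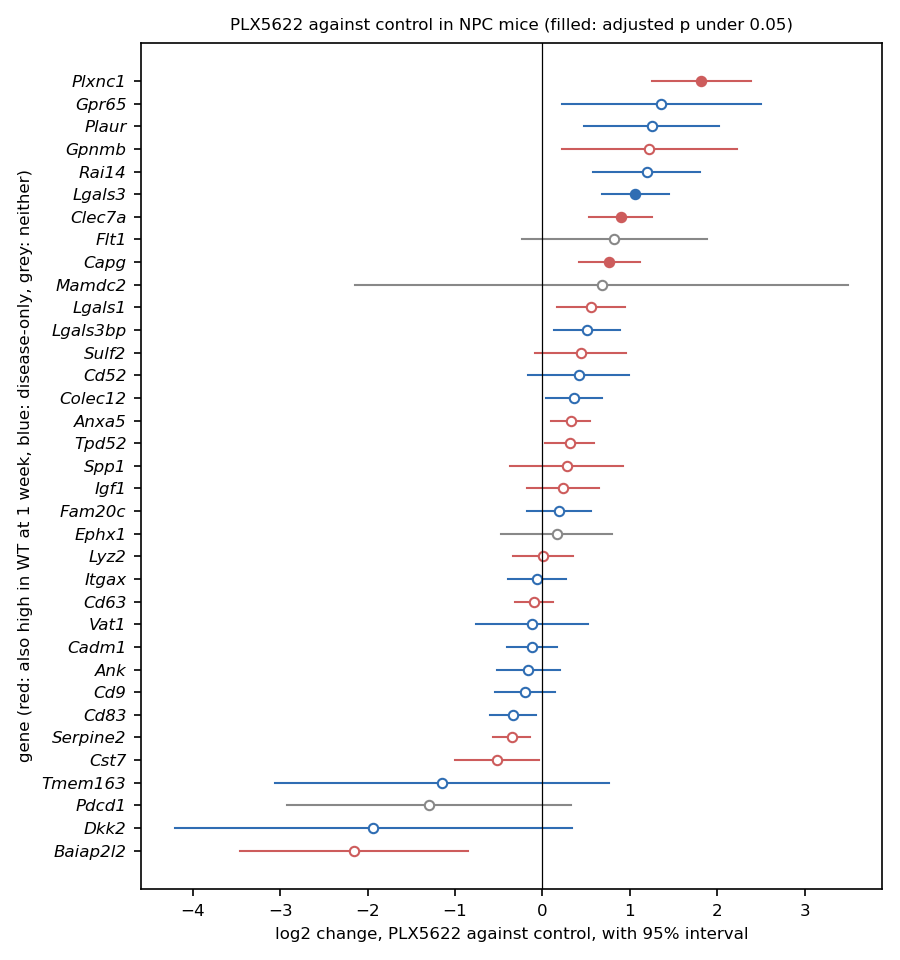
Log2 change of PLX5622 against control in NPC mice at 9 weeks for each of the 35 genes, with 95% intervals; filled points passed the limma threshold and colours give the class. Plxnc1, Lgals3, Clec7a and Capg are the filled points, all above 0, and Baiap2l2 is the lowest point at -2.15 with an interval from -3.45 to -0.85.

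Between the control arm and untreated NPC mice of the same age no member was called in either direction, and 0% of the 14312 genes were called by limma; 598 genes and 1 member, Mamdc2 (-3.18 ± 1.36), had an unadjusted p under 0.05, edgeR called 0 genes and DESeq2 1. Against WT mice at 9 weeks, PLX5622-treated NPC mice had 29 of the 35 genes higher (16.6% of genes tested) and 1, Pdcd1, lower (15.6%). Pdcd1 held 28.4, 239, 112, 82.2 and 302 in treated NPC and 676, 666, 1207 and 501 in WT 9w libraries (-2.65 ± 0.52, adjusted p = 0.000105). Igf1 (5.00 ± 0.35), Plxnc1 (4.96 ± 0.58), Gpnmb (4.91 ± 0.71) and Lgals3 (4.70 ± 0.41) led the higher genes. Baiap2l2 did not pass (1.27 ± 0.52, adjusted p = 0.0581), although without PLX5622 replicate 4 it did (1.82, adjusted p = 0.0032). Treated and WT mice came from different arms of the study, so treatment, genotype and arm cannot be told apart in this comparison.

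Related genes outside the 35 give the setting. Of 41 further genes of disease-associated microglia 2, 31, 36 and 35 were higher in NPC mice at 1, 3, 6 and 9 weeks and 1 was lower at each age, with Axl, a receptor for bridging molecules on dying cells (3.16), and Nceh1, a cholesterol ester hydrolase (2.31), leading at 9 weeks. Of all genes tested 0.876, 14.3, 8.76 and 11.2% were higher in NPC mice at 1, 3, 6 and 9 weeks and 0.577, 12.6, 6.5 and 7.77% lower. These shares apply to the lists below as well. Among the 41 genes 18 were higher (18.4% of genes tested) and 3 lower (15.7%) in WT mice at 1 week than at 3 weeks. Of 24 genes of resting microglia 1, 10, 13 and 13 were lower in NPC mice at the same ages and 0, 2, 1 and 0 higher, with Selplg at -1.84 and Olfml3 at -1.14 at 9 weeks. Cell cycle genes, 28 in all, were higher in NPC mice for 0, 21, 20 and 5 genes, the last including Mcm6 (0.94) and Stmn1 (1.09). So the cell cycle list had most calls at 3 and 6 weeks and the 35 genes at 9 weeks; whether the 2 lists differ in this was not tested.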

How the data were processed

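RNA was measured in 41 libraries of sorted cerebellar microglia from mice (16 WT, 25 NPC) in 10 groups. The deposited values are a signal, normalized counts: the authors scaled each library's gene counts with its own size factor. The submitters' processing notes name build mm9, STAR 2.5.1b, FastQC 0.11.4 and DESeq2. The annotation and the counting tool are not given in the sources used here. Values of every library were whole multiples of 1 step (100% within a tolerance of 1e-06), from which whole reads were recovered for edgeR 4.0.16 and DESeq2 1.42.0 as alternatives. Sample columns not used numbered 0. Reads carry no molecular identifiers, so depth bounds counting error only.

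Log2(normalized count + 1) values were tested with R 4.3.3 and limma 3.58.1 (trend and robust options, two-sided, Benjamini-Hochberg over all genes, threshold 0.05), keeping genes that reached 10 normalized counts in 3 or more of the fitted libraries. All 35 genes passed it in each fit. Age and genotype comparisons used 1 fit of 31 libraries (14046 genes, 23 residual degrees of freedom), PLX5622 against control its 10 libraries (12877 genes, 8 degrees of freedom), and comparisons across the arms all 41 libraries (14312 genes, 31 degrees of freedom). The limma step was tested on simulated data. Intervals are 95% confidence intervals.

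The members, the class rule and the other gene lists were chosen with earlier results of these data known. Every member could be named; from the other lists the 2 genes with the smallest adjusted p at 9 weeks and the most abundant gene of each marker list could be, and any other gene is marked as named after its value was seen. Alternatives were other pseudocounts (0.5 and 5), no filter, rescaling, quantile normalization, array weights, fits of only the groups compared, the replicate block, other WT ages for the class, edgeR, DESeq2, and leaving out each library or both NPC 6w replicates B and C. Replicate letters and numbers come from the labels; the series' design text counts mice as replicates, so each library was taken as 1 mouse. Deviations of same-letter libraries correlated at 1 week in all 4 pairs (r from 0.107 to 0.158). At the other ages and in the PLX5622 arm they did not in every pair. The main fits held no block at any age, 1 week included, and pairing by letter or number entered only in the replicate block alternative. No within-group pair of libraries matched within counting noise. Promoters came from a RefSeq table of GRCm38.p6, and overlapping genes from GENCODE vM21 on GRCm38; their coordinates were not set beside mm9 positions.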

Additional observations from a re-analysis of the deposited data

Results flagged for a closer look

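The genotype difference between NPC and WT mice was larger at 3 weeks than at 1 week, by a test of the difference itself, for 8 of the 35 genes: Cst7 (2.54 on the log2 scale), Anxa5 (1.79), Plaur (1.71), Cd63 (1.70), Lyz2 (1.68), Lgals3bp (1.59), Cd83 (1.25) and Serpine2 (1.01). Cst7, Anxa5, Lgals3bp and Cd83 passed as well when only the 4 groups compared were fitted.

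Single libraries far from the rest of their group were found in 16 of 315 combinations of gene and group, where chance would flag about 1 in 20. NPC 9w control replicate 1 accounted for 5 of them, with the lowest value of its group for Clec7a (1864 normalized counts), Igf1 (705), Cd9 (41615) and Pdcd1 (43.5) and the highest for Vat1 (288). In NPC mice, Gpnmb was lowest in NPC 3w replicate A (67.1), Lyz2 in NPC 3w replicate C (8761) and in PLX5622 replicate 2 (38870.1), and Plaur was highest in NPC 1w replicate D (382). In WT mice, Lgals3 was highest in WT 6w replicate B (245), Sulf2 in WT 6w replicate C (1155), Pdcd1 in WT 1w replicate C (272), Mamdc2 in WT 6w replicate A (4.33) and Dkk2 in WT 9w replicate A (1.02), while Gpr65 was lowest in WT 6w replicate A (132) and Mamdc2 in WT 1w replicate A (0). The Dkk2 and Mamdc2 values are 1 to a few reads.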

How the results depend on the processing

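No called change of a member reversed under any alternative run. Counts of members called at 3, 6 and 9 weeks, between WT ages, between NPC 9w and WT 1w and between treated NPC and WT mice, and the size of the class also high in WT at 1 week, stayed within 1.5 times their value under the alternatives run. For the growth of the genotype difference from 1 to 3 weeks (8 members) DESeq2 gave 16, only the groups compared in the fit 4 and the replicate block 13. For growth from 3 to 9 weeks (0 members) array weights gave 8, DESeq2 4, edgeR 2, quantile normalization 2, the replicate block 2, and only the groups compared, rescaling to the same total and leaving out both NPC 6w replicates B and C each gave 1. The step from 1 to 3 weeks in NPC mice (15) gave 9 with only the groups compared. PLX5622 against control (4) gave 10 with array weights, 8 with DESeq2 and 8 with the replicate block, where the numbers are not shown to pair the mice (3 of 5 pairs correlated over 0.1). The causes of these shifts were not tested. The block also moved calls of NPC against WT: Fam20c gained and Pdcd1 lost one at 1 week, Itgax and Spp1 gained one at 3 weeks, Mamdc2 at 6 and 9 weeks, and Flt1 and Tmem163 at 9 weeks, where Sulf2 lost one. It also gave Ank a call for NPC 9w against WT 1w and Colec12 one for the NPC age step. No paired analysis was possible for control against untreated or treated against WT mice because their replicates carry numbers in one arm and letters in the other.

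Leaving out 1 library gave 0 to 4 at 1 week, 20 to 23 at 3 weeks, 24 to 27 at 6 weeks, 27 to 30 at 9 weeks, 15 to 23 between WT ages, 14 to 22 for the class, 13 to 18 for the NPC age step, 19 to 23 for NPC 9w against WT 1w, 5 to 14 and 0 to 2 for growth to 3 and to 9 weeks, 1 to 8 for PLX5622 against control, 30 to 31 for treated NPC against WT and 0 for control against untreated. At 1 week leaving out NPC 1w replicate D or WT 1w replicate A gave 0, and leaving out NPC 1w replicate C gave 1. Growth to 3 weeks gave 5 without NPC 1w replicate C, WT 1w replicate D or WT 3w replicate A or B, and 14 without NPC 3w replicate A. For growth to 9 weeks the count was 2 when WT 3w replicate A was left out and 1 when NPC 3w replicate C or D was. PLX5622 against control gave 8 without PLX5622 replicate 5, 2 without control replicate 2 or PLX5622 replicate 2, and 1 without control replicate 3, 4 or 5 or PLX5622 replicate 4. Rescaling shifted the median of all genes by -0.14 at 3 weeks, -0.21 for the NPC age step, 0.10 between WT ages, -0.14 for NPC 9w against WT 1w and -0.11 for treated NPC against WT; quantile normalization shifted it by 0.10 for the NPC age step and -0.11 for growth to 9 weeks. All-gene calls (higher and lower) went from 2006 and 1771 to 1503 and 2438 at 3 weeks, from 2583 and 2203 to 3289 and 1577 between WT ages, from 1710 and 1799 to 1033 and 3125 for the NPC age step, from 1985 and 1713 to 1562 and 2639 for NPC 9w against WT 1w, from 2376 and 2234 to 1905 and 2858 for treated NPC against WT and from 1574 and 1091 to 1421 and 1491 at 9 weeks when rescaled; quantile normalization gave 1522 and 1494 at 9 weeks. Dkk2, Mamdc2, Tmem163 and Flt1 are limited by depth, with 0 reads in some libraries and at most 68, 180, 60 and 95 in any.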

Other observations

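At 1 week some members varied with replicate letter in the same way in both genotypes; the 3 given here were chosen after their values were seen. Itgax held 476, 666, 931 and 1628 normalized counts in WT 1w replicates A to D and 302, 499.7, 823 and 930.4 in the NPC 1w replicates of the same letters. Lgals3 held 153, 194, 412 and 605 and 178, 235, 309 and 701, and Fam20c 1458, 2815, 3683 and 4492 and 2332, 4789, 5070.1 and 7367. Replicate A was the lowest and replicate D the highest for Itgax, Lgals3 and Fam20c in both genotypes. The labels do not say what a letter stands for.

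In the PLX5622 arm some genes outside the 35 passed the test as well. Axl held 32395 to 46206 in control and 59699 to 66892 in PLX5622 libraries, with no overlap, a log2 change of 0.78 (limma adjusted p = 0.00703). Of the 24 genes of resting microglia 3 were lower with PLX5622 (0.311% of genes tested). They were Cst3, a secreted cystatin (-0.92, limma adjusted p = 0.0103), and, named after their values were seen, Crybb1 (-1.54, 0.0185) and Fcrls (-1.30, 0.0291). Control replicate 1 and PLX5622 replicate 1 had the lowest Pdcd1 values of their groups (43.5 and 28.4) and the highest Gpr65 (3327 and 4654) and Plaur values (3309.7 and 11022).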
